A study of Homo sapiens with 5 samples.

Results

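The genes described here encode 10 regulators of the path from insulin receptor substrates through phosphoinositide 3-kinase (PI3K) to the FOXO transcription factors and the growth kinase complex mTORC1: DDIT4, SESN1, SESN2, PIK3R1, IRS1, IRS2, FOXO1, FOXO3, RHEB and TSC2. They were chosen by gene symbol in the platform annotation, and because DDIT4 was higher while SESN1 and PIK3R1 were lower with celastrol on these same arrays. Of the 10, 9 were measured, by 21 probe sets (groups of short probes read as 1 value) that name them alone, out of 12165 genes and 22215 probe sets in all. SESN2 has no probe set of its own in the annotation used here and gets no value.

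RNA came from the LNCaP line, human prostate cancer cells that respond to androgen, kept in RPMI medium with serum. They received celastrol, a triterpenoid from thunder god vine, at 1.25 µM, or its solvent DMSO, for 6 h. There were 2 celastrol and 3 DMSO arrays, called biological replicates in the labels, and the compared cells are 1 cell line with 1 dose and 1 time. Nothing in the labels tells whether the replicates came from separate cultures, so the spread between them may be technical. The description label of the DMSO samples names celastrol, while their titles and treatment protocol name DMSO, which was followed. Levels are given as log2(intensity + 1). A difference is the celastrol mean less the DMSO mean of those levels, a scale that shrinks differences of dim genes, and the number of arrays limits the precision.

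Insulin and related growth factors act through the adaptors IRS1 and IRS2, which recruit the PI3K enzyme by its regulatory subunit, made by PIK3R1. The lipid product of PI3K activates the kinase AKT, which keeps FOXO1 and FOXO3 out of the nucleus and restrains TSC2, an inhibitor of the small GTPase RHEB that switches mTORC1 on. DDIT4, also called REDD1, and the sestrins SESN1 and SESN2 are stress-induced proteins that turn mTORC1 down, the former through the TSC complex and the latter through the amino acid sensing branch. SESN1 and IRS2 are also known targets of FOXO factors, so the path feeds back on its own inputs.

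The array labelled DMSO replicate 3 was kept apart. Its Pearson correlation with the other arrays over probe sets was 0.843 to 0.844, whereas those 4 correlated at 0.994 to 0.998. It held 9 of 10 measured luminal prostate markers over 2-fold below DMSO replicates 1 and 2, with a median level of 4.50 against 9.59 to 9.67 on the other 4 arrays. KLK3, which encodes prostate-specific antigen, stood at 4.56 there and at 10.07 to 10.89 elsewhere. It held 11 of 13 leukocyte markers over 2-fold above them, with a median level of 10.40 against 4.26 to 4.36, and MS4A1 and CD79A, which mark B cells, stood at 10.91 and 8.63. The comparison therefore uses the 2 celastrol arrays and DMSO replicates 1 and 2, on which 11 of those 13 markers lay among the dim probe sets, and the value on DMSO replicate 3 follows each gene.

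The promoters of the members that set the choice are shown because DDIT4 and the other 2 differed in opposite directions. Each is the 250 bases before an annotated transcript start, from RefSeq in build GRCh38.p14, in lower case with capitals at matches on either strand to 6 short motifs. The motifs were the C/EBP-ATF response element (TGATGNAA), a FOXO element (GTAAACA), the cores of the heat shock element (GAANNTTC), the antioxidant element (TGACNNNGC) and the hypoxia element (ACGTG), and the CCAAT box (CCAAT). DDIT4 has 1 annotated start, and its window lies at chr10:72273674-72273923 on the plus strand. SESN1 has 3, of which the farthest upstream, at chr6:109094847-109095096, and the next, at chr6:109009553-109009802, both on the minus strand, are shown. PIK3R1 has 4, of which the farthest upstream, at chr5:68215506-68215755 on the plus strand, is shown.
DDIT4: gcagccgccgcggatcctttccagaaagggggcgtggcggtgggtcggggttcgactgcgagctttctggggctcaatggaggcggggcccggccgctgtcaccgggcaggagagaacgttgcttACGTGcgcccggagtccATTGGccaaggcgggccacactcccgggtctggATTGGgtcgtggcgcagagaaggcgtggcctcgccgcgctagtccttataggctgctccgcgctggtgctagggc
SESN1 start 1: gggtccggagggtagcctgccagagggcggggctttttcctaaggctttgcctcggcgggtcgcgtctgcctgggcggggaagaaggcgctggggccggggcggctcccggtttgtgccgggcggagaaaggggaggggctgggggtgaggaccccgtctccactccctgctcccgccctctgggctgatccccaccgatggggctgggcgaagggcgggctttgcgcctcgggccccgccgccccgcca
SESN1 start 2: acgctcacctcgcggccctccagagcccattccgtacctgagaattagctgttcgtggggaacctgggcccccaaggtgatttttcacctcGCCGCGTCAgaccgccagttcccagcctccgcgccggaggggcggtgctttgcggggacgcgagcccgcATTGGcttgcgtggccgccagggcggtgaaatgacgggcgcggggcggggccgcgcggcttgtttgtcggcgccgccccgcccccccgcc
PIK3R1 start 1: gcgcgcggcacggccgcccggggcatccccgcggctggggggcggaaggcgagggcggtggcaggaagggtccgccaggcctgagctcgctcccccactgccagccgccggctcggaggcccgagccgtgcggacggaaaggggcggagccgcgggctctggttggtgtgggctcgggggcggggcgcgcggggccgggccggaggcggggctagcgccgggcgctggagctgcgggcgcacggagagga

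In the DDIT4 window the capitals mark ACGTG from 125 to 121 bases before the start and 2 CCAAT boxes, read on the other strand as ATTGG, that begin 108 and 75 bases before it. SESN1 start 2 holds a match to the antioxidant core from 159 to 151 bases before the start and a CCAAT box that begins 90 bases before it. SESN1 start 1 and PIK3R1 start 1 hold none of the 6, but the other windows of both genes, not shown, do hold matches. SESN1 start 3 holds a CCAAT box that begins 75 bases before the start. PIK3R1 start 2 holds ACGTG and its start 3 TGATGTAA and a CCAAT box. PIK3R1 start 4 holds GAAACTTC and GAAGTTTC, both of which match the heat shock core. Those are the only heat shock core matches among the members' windows, and 5.78% of all windows hold that core. Among 35116 windows of the same length over the annotation, 18.5% hold ACGTG, 32.0% CCAAT and 10.9% the antioxidant core, so these matches are common. TGATGNAA is found in 3.14% of windows and GTAAACA in 2.98%. Of the 19 windows of the 10 members none held GTAAACA, and TGATGNAA occurred in 2, at the third start of PIK3R1 and at the first of 2 starts of TSC2, shown here as the 30 bases around it at chr16:2047861-2047890 on the plus strand, with the match in capitals.
TSC2: gcggccccgtcacgTGATGCAAggatcgcc

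The matches of ACGTG and TGATGNAA share bases there, since CACGTG, an E-box found in 6.34% of windows, runs into TGATGCAA. The same stretch holds a match to the antioxidant core, GCCCCGTCA from 121 to 113 bases before the start, left in lower case. It shares bases with the E-box. A match of letters describes the sequence and is neither a bound site nor a cause.

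DDIT4, the inhibitor of mTORC1, was higher with celastrol. Its probe set 202887_s_at read 10.32 and 10.20 on the celastrol arrays and 8.70 and 8.68 on DMSO replicates 1 and 2. Both celastrol values lay above both DMSO values, by at least 1.495. The mean was 10.26 ± 0.0899 (SD, n = 2) with celastrol and 8.69 ± 0.0150 (SD, n = 2) with DMSO, a difference of 1.57, or 2.97-fold. It was the 16th highest difference of 8091 genes, where the middle 90% ran from -0.35 to 0.28. DMSO replicate 3 stood at 9.32, between the groups, 0.63 above the other DMSO arrays.

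SESN1, the other measured stress inhibitor of mTORC1 and a target of p53 and FOXO, differed the other way. Its probe set 218346_s_at read 7.92 and 7.76 with celastrol and 9.04 and 9.07 with DMSO. The groups did not overlap, and the nearest pair was 1.12 apart. The mean difference was -1.22, with SDs of 0.118 and 0.0220 (n = 2 each), which puts DMSO at 2.33-fold the celastrol level. It was the 5th lowest difference of the 8091. On DMSO replicate 3 SESN1 stood at 4.75, near the dim end and 19.8-fold below the other DMSO arrays, so over all 3 DMSO arrays the difference turns to 0.22.

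PIK3R1, the regulatory subunit of PI3K, was lower with celastrol on all 3 of its probe sets. The brightest, 212239_at, read 6.99 and 6.98 with celastrol and 7.59 and 7.71 with DMSO, a difference of -0.66 with SDs of 0.00856 and 0.0833 (n = 2 each). The second, 212240_s_at, read 6.47 and 6.60 against 7.26 and 7.36, a difference of -0.78. The dimmest, 212249_at, read 4.78 and 4.64 against 5.35 and 5.12, a difference of -0.52 at low levels. On none of the 3 did a celastrol array reach a DMSO array. DMSO replicate 3 stood at 7.49, 7.51 and 4.91 on them in that order, at most 0.32 from the mean of the other DMSO arrays, and over all 5 arrays the difference of the brightest is -0.61. The difference of -0.66 was the 76th lowest of 8091.

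**Figure D1:**
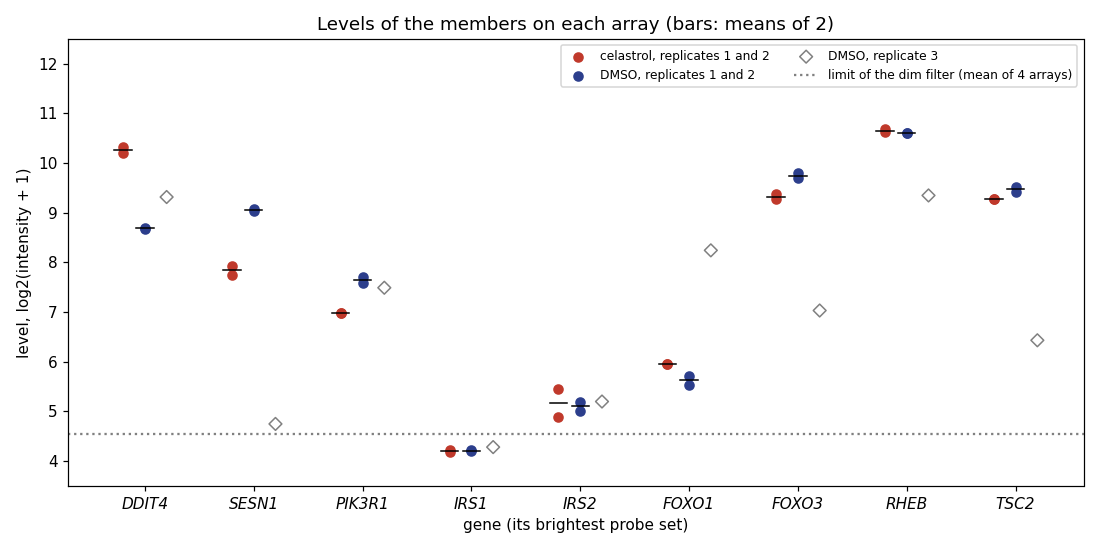
Level of the brightest probe set of each measured member on each array, in log2(intensity + 1), with celastrol in red, DMSO replicates 1 and 2 in blue, DMSO replicate 3 as open diamonds and the mean of each pair as a bar. DDIT4 is higher by 1.57, and SESN1 and PIK3R1 are lower by 1.22 and 0.66, without overlap, while DMSO replicate 3 departs most for SESN1, at 4.75.

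The insulin receptor substrates were low on these arrays. IRS1, measured by 204686_at, read 4.17 and 4.21 with celastrol and 4.21 on both DMSO arrays, under the limit of 4.54 below which the dimmest 40% of probe sets were left out. It is a value near the floor, from which no difference can be read. IRS2 read 4.88 and 5.44 with celastrol and 5.01 and 5.20 with DMSO on 209185_s_at. The celastrol arrays lay on either side of the DMSO arrays, and their SD of 0.399 was larger than the mean difference of 0.05. Its other probe set, 209184_s_at, was dim and read 4.29 and 4.49 against 4.62 and 4.67. Leaving out each of the 4 arrays in turn moved the IRS2 difference from -0.23 to 0.34.

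FOXO1 and FOXO3, the transcription factors held out of the nucleus by AKT, differed in opposite directions. FOXO1 read 5.96 on both celastrol arrays and 5.72 and 5.53 with DMSO on 202723_s_at, a difference of 0.33. Its dim probe set 202724_s_at read 4.55 on both celastrol arrays and 4.39 and 4.55 with DMSO, so the groups touch there. DMSO replicate 3 stood at 8.24 on the brighter probe set, 6.14-fold above the other DMSO arrays, and over all 5 arrays the difference turns to -0.54.

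FOXO3 read 9.38 and 9.27 with celastrol and 9.79 and 9.70 with DMSO on 204131_s_at, a difference of -0.42. On 204132_s_at it read 9.37 and 9.48 against 9.59 and 9.55, a difference of -0.14, and on 210655_s_at 8.44 and 8.51 against 8.995 and 9.044, a difference of -0.55. Celastrol was below DMSO without overlap on these 3, although the size of the difference varied among them. The dimmest, 217399_s_at, read 4.94 and 4.89 against 4.94 and 5.41, where a celastrol and a DMSO array share a value. The suffix _s_at marks probe sets that can match several related transcripts, and the annotation also lists a close copy, FOXO3B, so FOXO3 values may hold signal of both. On DMSO replicate 3 the 3 brighter probe sets stood between 6.12 and 7.39, which turns the difference of 204131_s_at over all 5 arrays to 0.48. In the annotation FOXO3 and SESN1 lie near each other on chromosome 6, with 3 protein-coding entries between them, of which ARMC2 is the named gene.

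RHEB and TSC2, the GTPase that activates mTORC1 and its inhibitor, differed little. TSC2 read 9.27 on both celastrol arrays and 9.52 and 9.42 with DMSO on 215735_s_at, a difference of -0.20. The groups did not overlap, and the nearest pair was 0.15 apart. Its other probe set, 215624_at, was dim at 4.25 and 4.41 with celastrol and 4.41 on both DMSO arrays. On DMSO replicate 3 TSC2 stood at 6.43, 8.21-fold below the other DMSO arrays, and over all 5 arrays its difference was 0.82.

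RHEB has 5 probe sets. The brightest, 201453_x_at, read 10.62 and 10.68 with celastrol and 10.61 on both DMSO arrays, a difference of 0.04. On 213404_s_at it read 7.30 and 7.21 against 7.06 and 7.25, with overlap. The other 3 had differences between 0.00 and 0.22 at low levels from 4.17 to 5.17, and of these only 201451_x_at was left out as dim. The suffix _x_at marks probe sets with probes that can match unrelated or copied sequence, and the annotation lists pseudogenes of RHEB. DMSO replicate 3 stood at 9.35 on the brightest, 2.39-fold below the others, and over all 5 arrays the difference of that probe set was 0.46.

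**Figure D2:**
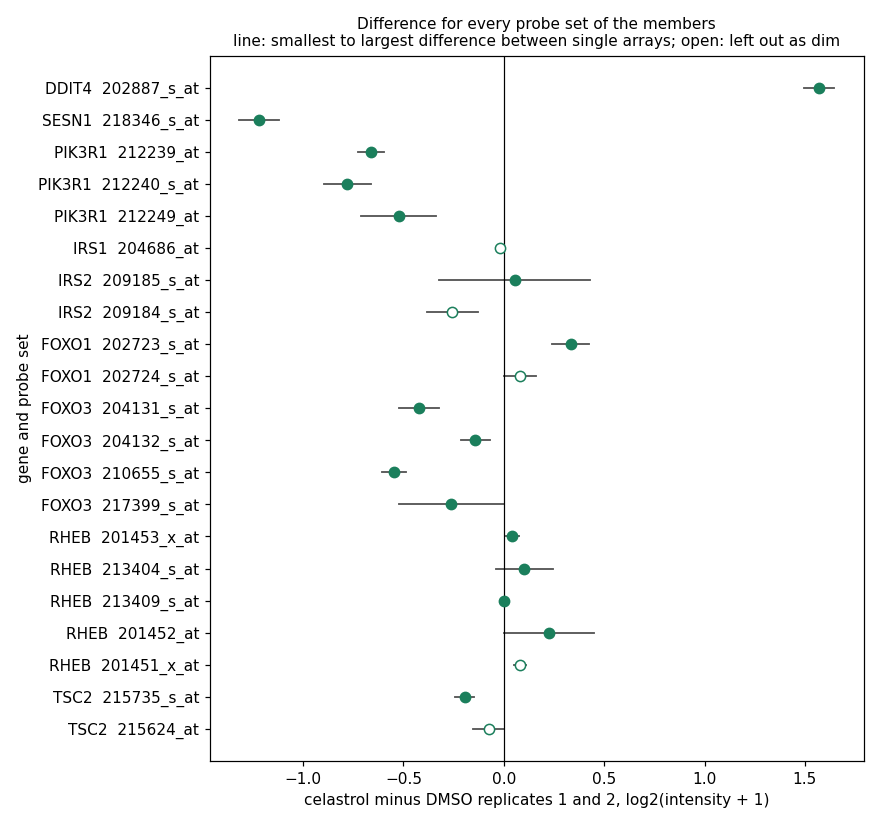
Difference of celastrol from DMSO replicates 1 and 2 for all 21 probe sets of the members, in log2(intensity + 1); lines run from the smallest to the largest difference between single arrays, and open circles are the 5 probe sets left out as dim. The 3 probe sets of PIK3R1 lie between -0.78 and -0.52, those of FOXO3 between -0.55 and -0.14, and the 5 of RHEB between 0.00 and 0.22.

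Since the members were chosen on this contrast, their differences are a description and carry no test. A limma fit over the 4 arrays and all 13329 probe sets kept, with Benjamini-Hochberg adjustment, called 84 of 8091 genes, or 1.04%, at an adjusted p under 0.05, with 0.569% higher and 0.47% lower. Of the 8 members tested, it called 2, DDIT4 and SESN1, from which nothing further is read. The celastrol arrays did not overlap DMSO replicates 1 and 2 on 11 of the 16 member probe sets kept, where 41.5% of all kept probe sets had no overlap, and on 13 of all 21, where the figure was 32.7% over all probe sets that name 1 gene. With no filter the fit called 0 of 9 members and 2 of 12165 genes, or 0.0164%, and on all 5 arrays it called 0 of 12165 genes, with 394 at an unadjusted limma p under 0.05. DMSO replicate 3 lay over 2-fold from the mean of the other DMSO arrays for 5 of the 8 members tested, and for 26.7% of all genes tested.

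Around the members, 135 other genes were listed by role, including FOXO targets and inducers of DDIT4. Of these, 114 were measured and 98 passed the filter. LPIN1, CEBPB and DDIT3 rose and PIK3CD fell, which is 4 of 98, or 4.08%, against 1.04% of all genes. CEBPB and DDIT3 come from the list of DDIT4 inducers, which had 2 of 7 genes called. That list stands around a member chosen because it rose, and earlier results were known, so no excess is read from the share. The median difference was -0.02 over the 98 and -0.02 over all genes tested. The unadjusted limma p was under 0.05 in 30 of the 98 genes and in 20.2% of all genes. With no filter 0 of these genes were called, and leaving out celastrol replicate 1 or 2 or DMSO replicate 1 or 2 also gave 0. It was 10 after quantile normalization.

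Among PI3K subunits PIK3CD, which encodes the catalytic subunit p110 delta, fell. It read 8.07 and 7.92 with celastrol and 9.07 and 9.08 with DMSO, a difference of -1.08 (SE 0.0638, limma adjusted p = 0.0481). A dimmer probe set, 211230_s_at, read 5.18 and 4.87 against 5.49 and 5.21, a difference of -0.33 that did not pass (limma adjusted p = 0.463). DMSO replicate 3 stood at 9.80 on the brighter one, above both groups. PIK3R3, another regulatory subunit, had a difference of -0.42 (limma adjusted p = 0.100), and the other 5 of the 7 tested subunits did not pass either.

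Among mTORC1 substrates and their partners LPIN1, a phosphatidate phosphatase that mTORC1 phosphorylates and that acts in lipid synthesis and gene control, rose. It read 9.20 and 9.13 with celastrol and 7.54 and 7.53 with DMSO, a difference of 1.63 (SE 0.0382, limma adjusted p = 0.0315), or 3.09-fold. The other probe sets of LPIN1 were higher by 1.70 and 1.40 (limma adjusted p = 0.0605 and 0.0388). On DMSO replicate 3 LPIN1 stood at 6.54, below both groups. The S6 kinase gene RPS6KB1 had a difference of 0.11 (limma adjusted p = 0.526), and 1 of the 13 genes tested in the list was called.

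Among transcription factors known to induce DDIT4, CEBPB and DDIT3 rose and the 5 others tested did not pass. CEBPB, a partner of ATF4, read 9.46 on both celastrol arrays and 8.49 and 8.56 with DMSO, a difference of 0.93 (SE 0.0365, limma adjusted p = 0.0367). DDIT3, which encodes CHOP, read 9.20 and 9.09 against 7.0015 and 7.1983, a difference of 2.05 (SE 0.0930, limma adjusted p = 0.0388). The stress factor ATF3 stood at 9.93 and 9.80 against 7.69 and 8.08 without passing (limma adjusted p = 0.0624). ATF4, the factor that translates amino acid and folding stress into transcription, stood at 12.26 and 12.16 against 11.51 and 11.60, a difference of 0.66 that did not pass (limma adjusted p = 0.0624). For all 4, both celastrol arrays lay above DMSO replicates 1 and 2, where 41.5% of all kept probe sets had no overlap in either direction. On DMSO replicate 3, the array kept apart, CEBPB, DDIT3, ATF3 and ATF4 stood at 5.75, 6.19, 5.83 and 10.81.

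The AKT module had 0 of 9 genes called by limma, with 2 at an unadjusted p under 0.05, against 20.2% of all genes. TRIB3, a pseudokinase that binds AKT and is itself an ATF4 target, stood at 8.86 and 8.69 with celastrol and 7.62 and 7.75 with DMSO, a difference of 1.09 (limma adjusted p = 0.0605). AKT1 had a difference of -0.33 (limma adjusted p = 0.220). Of the 9 genes 6 lay below 0 and 3 above.

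FOXO target genes differed in both directions, with 8 above and 11 below 0 among 19 tested. Limma called 0 of them, with 10 at an unadjusted p under 0.05, against 20.2% of all genes. TXNIP, an inhibitor of thioredoxin and of glucose uptake, read 9.63 and 9.45 with celastrol and 10.63 and 10.69 with DMSO, a difference of -1.11 (limma adjusted p = 0.0605). Its other probe sets had differences of -1.21 and -1.14, of which the first passed (limma adjusted p = 0.0315). CITED2, a transcriptional coregulator, read 6.65 and 6.75 against 7.94 and 7.71, a difference of -1.13 (limma adjusted p = 0.0673). On the other side CDKN1A, the cell cycle inhibitor p21, stood 0.67 higher (limma adjusted p = 0.153), and GABARAPL1, which acts in autophagy, 0.72 higher (limma adjusted p = 0.100). DMSO replicate 3 was over 2-fold lower than the other DMSO arrays for 11 and over 2-fold higher for 3 of the 21 measured genes of this list.

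**Figure D3:**
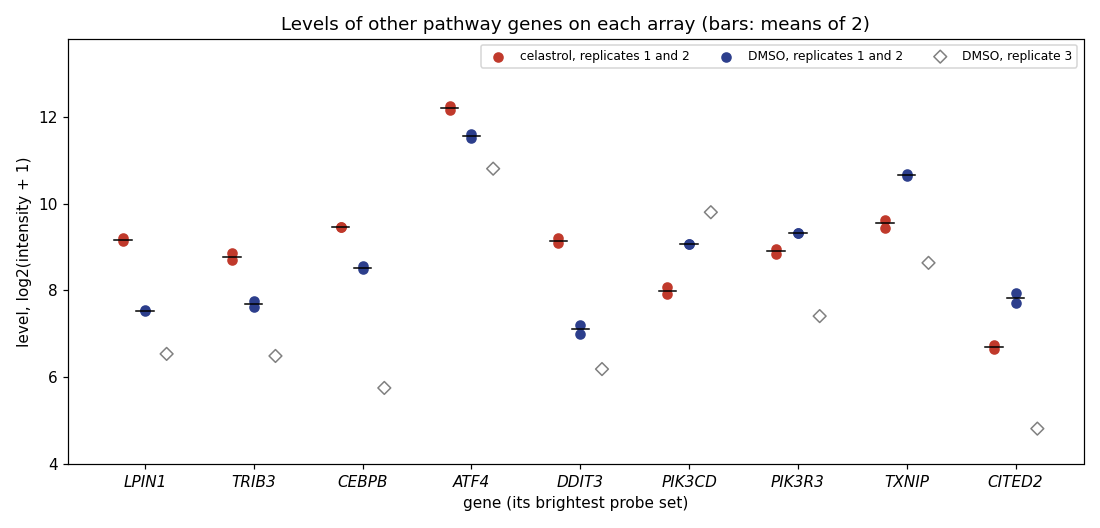
Level of 9 other pathway genes on each array, in log2(intensity + 1), with celastrol in red, DMSO replicates 1 and 2 in blue, DMSO replicate 3 as open diamonds and bars at the mean of each pair. LPIN1, CEBPB and DDIT3 are higher by 1.63, 0.93 and 2.05 and PIK3CD is lower by 1.08; the other 5 did not pass the test with these probe sets.

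In the remaining pathway lists limma called 0 genes. For scale, 20.2% of all genes tested had an unadjusted limma p under 0.05, and the median difference over all genes was -0.02. Of receptors and adaptors 10 were tested, with 4 at an unadjusted p under 0.05, and GRB10, an adaptor that inhibits insulin signalling, had a difference of -0.41 and SH2B2 one of 0.21 (limma adjusted p = 0.110 and 0.127). Of phosphatases that oppose PI3K and AKT 7 were tested, with 1 under 0.05 unadjusted, and INPPL1 had a difference of -0.26 and PPP2CA one of 0.13 (limma adjusted p = 0.172 and 0.522). In the TSC, mTORC1 and Rag module 18 genes were tested, with 2 under 0.05 unadjusted, and LAMTOR3, a subunit of the lysosomal Ragulator complex, had a difference of 0.26 and the GTPase RRAGA one of -0.10 (limma adjusted p = 0.105 and 0.192). The AMPK list holds subunits of AMPK, the energy sensor that restrains mTORC1, and the kinases that activate it with their partners. Of its 9 genes tested 7 lay below 0 and 4 were under 0.05 unadjusted, with a median of -0.22. The 2 above 0 were the AMPK subunit genes PRKAA1, at 0.06, and PRKAB1, at 0.19 (limma adjusted p = 0.532 and 0.131). CAB39, a subunit of the kinase complex that activates AMPK, had a difference of -0.23, and CAMKK2, another activator, one of -0.47 (limma adjusted p = 0.0922 and 0.125). CAB39L, a close relative of CAB39 that was on no list and was looked up after the values were seen, fell by 0.92 on the log2 scale (SE 0.026, limma adjusted p = 0.0315).

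Of the cell type markers tested on these 4 arrays, limma called 1 of 10 luminal prostate genes and 0 of 2 leukocyte genes. The unadjusted limma p was under 0.05 in 6 luminal genes and 1 leukocyte gene, against 20.2% of all genes. TMPRSS2, an androgen-regulated protease, fell by 1.08 on the log2 scale (SE 0.0473, limma adjusted p = 0.0387). The keratin gene KRT18 had a difference of 0.27 (limma adjusted p = 0.0947), and KLK3 and its relative KLK2 had differences of -0.65 and -0.60 (limma adjusted p = 0.109 for both). Of the 10 luminal genes 4 lay above 0 and 6 below, with a median of -0.10. LCP1, an actin bundling protein of leukocytes, had a difference of -0.15 and CD52 one of 0.11 (limma adjusted p = 0.151 and 0.550).

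**Figure D4:**
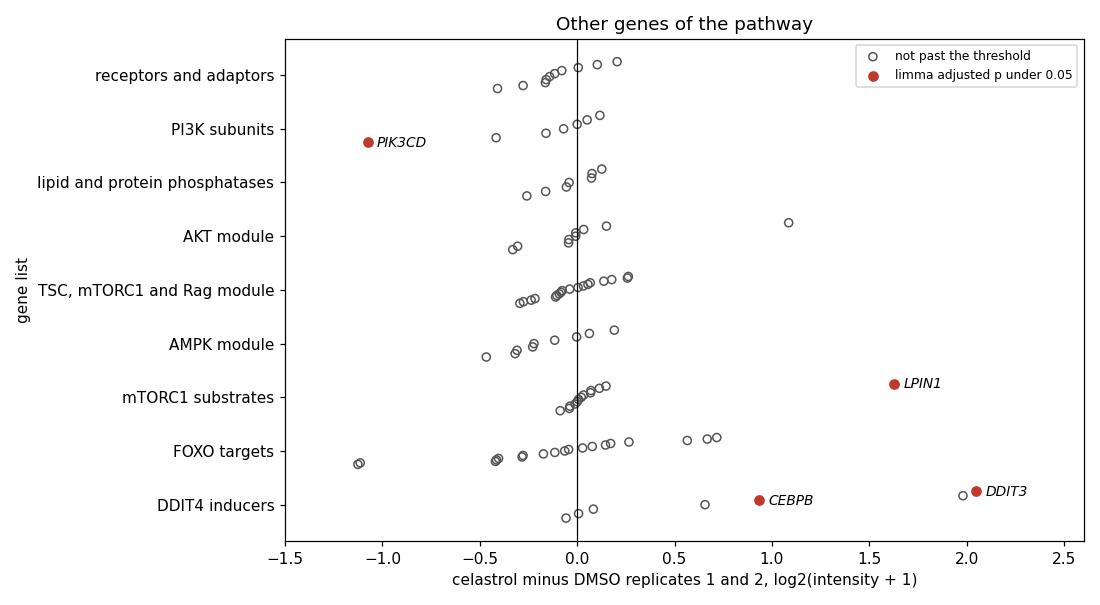
Difference of celastrol from DMSO replicates 1 and 2, in log2(intensity + 1), for the tested genes of 9 lists around the members, each circle a gene and filled circles those past the limma threshold. LPIN1, CEBPB and DDIT3 on the right and PIK3CD on the left are called. The genes of the TSC, mTORC1 and Rag module lie within 0.5 of 0, as do those of the receptor, phosphatase and AMPK lists.

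Genes of like pattern were taken by the Euclidean distance between profiles, each centred on its own mean. Over the 4 arrays the nearest to DDIT4 were LPIN1, at 0.0710, DNAJB4, a heat shock cochaperone, at 0.116, and AKR1C1, an aldo-keto reductase, at 0.178. Over all 5 arrays they were INSIG1, which holds back the sterol factor SREBP, at 0.362, FICD at 0.425 and MSMO1, a sterol enzyme, at 0.540. For SESN1 the nearest over the 4 arrays were the ephrin ligand EFNB2, at 0.0988, TXNIP, at 0.106, and ARID5B, at 0.107, and over all 5 HOXC6, RLN2 and EFNB2, at 0.267, 0.302 and 0.453. For PIK3R1 they were NDUFAF4, NUP54 and CDK8 over the 4, at 0.0516, 0.0596 and 0.0623, and ALDH1B1, PPIF and MRPS2 over all 5, at 0.0805, 0.110 and 0.138. EFNB2 alone appears on both lists of its gene.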

How the data were processed

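Total RNA of 5 samples, extracted with Trizol, was labelled as biotinylated cRNA by the Affymetrix protocol, per the labels' protocols. The deposited table holds an intensity on a linear scale for each probe set and array. The authors used RMA, per the submitters' processing notes; its version is not given in the sources used here. Values were put on the log2(value + 1) scale and not normalized again; 0 columns of per-sample values were left unused. Between 17.1% and 19.3% of probe sets held identical values on pairs of the 4 compared arrays, and 6 of the 21 member probe sets were tied within a group.

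Of 22215 probe sets 19724 name 1 gene, 568 several and 1923 are unnamed here; Entrez look-up of the 21 member probe sets changed 0 symbols. The fit was limma 3.58.1 in R 4.3.3 (lmFit, eBayes, two-sided), without the 40% of probe sets lowest in mean over the 4 arrays. It was tried on simulated data with independent normal noise and no tied values, which does not cover the ties given above. A gene is represented by its brightest probe set.

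The members, the lists and this filter were chosen with earlier results of these data known. The text names all members, called list genes, the 2 of smallest p in each list, and the 3 nearest profiles to 3 members. ATF3, ATF4, CDKN1A, GABARAPL1, PRKAA1, PRKAB1, CAB39L, KLK2 and KLK3 were added after their values were seen, as was each list's unadjusted count. Other genes of the rule were not analysed here. Alternatives varied filter, arrays, normalization, pseudocount, variance model, pairing and probe set choice.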

Additional observations from a re-analysis of the deposited data

How the results depend on the processing

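The 84 genes called on the 4 arrays became 2 with no filter, 21 with the dimmest 20% left out, 255 after quantile normalization, 195 with arrays centred on their medians, 131 with the mean of a gene's probe sets, and 0 on all 5 arrays with the filter of the 4. The 4 pathway genes called became 0, 1, 10, 9, 7 and 0 in the same order. Leaving out any 1 of the 4 arrays gave 0 to 0 calls in both counts, with 1700 to 1840 genes at an unadjusted limma p under 0.05. Few degrees of freedom remain there. On all 5 arrays 0 genes were called, and 0 to 2 with 1 array left out, the 2 without DMSO replicate 3. With the replicate number as a block, limma called 0 genes and 0 pathway genes, with 1350 genes at an unadjusted p under 0.05. The labels do not tell whether equal replicate numbers pair the arrays. The replicate differences of the groups correlated at r = -0.0106, which cannot settle it. SESN1 turned to 0.22 on all 5 arrays, by the level of DMSO replicate 3. Under the alternatives LPIN1 was called in 8 of 15, DDIT3 and CEBPB in 7 each and PIK3CD in 6, with adjusted p from 0.00451 to 0.863 and the same direction in every case. PIK3R1 was called beside DDIT4 and SESN1 after quantile normalization, after median centring and with the mean of its probe sets. With no filter, with the dimmest 20% left out, on all 5 arrays and with the block, 0 members were called. The members were chosen on this contrast, so their calls and the ranges of their differences under any setting are no support for them. Leaving out 1 of the 4 arrays kept DDIT4 between 1.51 and 1.63, SESN1 between -1.30 and -1.13 and PIK3R1 between -0.72 and -0.60.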
